A study of Mus musculus with 12 samples.

Results

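The genes described here are 4 Siglec receptors, Siglece, Siglecf, Siglecg and Cd33, and 3 phosphatases that inhibitory receptors recruit, Ptpn6 (which encodes SHP-1), Ptpn11 (SHP-2) and Inpp5d (SHIP-1). They were chosen by name, with earlier results of these data known. They make up 7 of the 55401 mouse genes in the table of counts. Each of the 7 also belonged to the 14079 genes that were tested, those with more than 0 on the scale of log2 CPM (counts scaled to a common normalized library size) in at least 2 libraries.

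The data were RNA sequencing of Sp37A3, a dendritic cell line grown from mouse spleen and kept in medium with GM-CSF and M-CSF. The control line, CtrV, carries an empty lentiviral CRISPR vector, and the other line, EKO, is a pool of single-cell clones edited at Siglece with CRISPR-Cas9. Cells of each line were left unpulsed or pulsed with ovalbumin (OVA, 0.1 mg/ml for 2 h). All cells, the unpulsed ones too, were then stimulated with the bacterial product LPS and taken after 24 h. The LPS dose was 0.1 µg/ml for the pulsed cells and is not given for the unpulsed ones. Each of the 4 groups held 3 libraries. The study has 1 line of each kind, so an effect of the editing and any other difference between the lines or their clones cannot be told apart. The labels do not say how replicates were grown, so p-values measure the spread between these libraries, which may be technical.

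Siglecs are receptors on blood cells that bind sialic acids, the sugars that cap the glycans of most cell surfaces. Many of them carry ITIMs, short tyrosine motifs in the cytoplasmic tail. When kinases of the Src family phosphorylate these tyrosines, the phosphatases SHP-1 and SHP-2 dock on them through their SH2 domains and remove phosphate from nearby activating proteins. SHIP-1 acts on membrane lipids that PI3-kinase makes, and is also brought to inhibitory receptors. In dendritic cells and other myeloid cells this pathway is known for dampening responses to activating stimuli.

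The 4 Siglec genes lie close together on mouse chromosome 7, and the 3 phosphatase genes lie on other chromosomes. In the GENCODE annotation of GRCm38 (also called mm10), Siglece is at chr7:43651070-43660161 on the minus strand, Siglecf at chr7:43351341-43359531 on the plus strand, Siglecg at chr7:43408204-43418358 on the plus strand and Cd33 at chr7:43524216-43544428 on the minus strand. Ptpn6 is at chr6:124720707-124738714, Ptpn11 at chr5:121130533-121191397, both on the minus strand, and Inpp5d is at chr1:87620312-87720507 on the plus strand.

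The edit was aimed at the first exon of Siglece. The first 120 of its 1401 coding bases are shown because the guide given in the study's methods matches within them. They lie at chr7:43660013-43660132 on the minus strand (GRCm38), in exon 1 of 7, which holds 439 coding bases, and follow 29 bases of 5′ UTR. The sequence is printed 5′ to 3′ on the gene's strand, with the start codon in capitals.
Siglece, exon 1: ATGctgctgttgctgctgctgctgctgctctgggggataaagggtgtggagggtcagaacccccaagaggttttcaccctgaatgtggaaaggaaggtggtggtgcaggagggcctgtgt

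The promoters of the 4 Siglec genes are shown because these genes differed between the lines in different directions. Each run is the 250 bases before the gene's start in RefSeq (GRCm38.p6), 5′ to 3′ on the gene's strand, and all 7 genes were found there. Capitals mark the letters GAGGAAG, a form of the site bound by ETS factors such as PU.1, a regulator of myeloid genes, or their reverse complement.
Siglece, chr7:43660162-43660411, minus strand: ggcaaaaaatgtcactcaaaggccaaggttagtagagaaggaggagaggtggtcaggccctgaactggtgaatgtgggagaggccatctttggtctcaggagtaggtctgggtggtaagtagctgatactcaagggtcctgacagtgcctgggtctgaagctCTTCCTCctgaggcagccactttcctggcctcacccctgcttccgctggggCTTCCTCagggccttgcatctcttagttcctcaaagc
Siglecf, chr7:43351091-43351340, plus strand: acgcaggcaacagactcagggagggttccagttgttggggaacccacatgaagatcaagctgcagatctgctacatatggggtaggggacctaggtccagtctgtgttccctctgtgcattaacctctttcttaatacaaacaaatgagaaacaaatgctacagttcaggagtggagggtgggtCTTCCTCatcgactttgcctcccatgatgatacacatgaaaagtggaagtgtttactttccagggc
Siglecg, chr7:43407989-43408238, plus strand: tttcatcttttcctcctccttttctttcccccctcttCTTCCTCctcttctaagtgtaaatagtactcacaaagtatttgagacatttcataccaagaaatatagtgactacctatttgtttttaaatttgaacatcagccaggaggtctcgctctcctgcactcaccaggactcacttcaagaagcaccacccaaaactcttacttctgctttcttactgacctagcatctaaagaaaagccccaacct
Cd33, chr7:43533172-43533421, minus strand: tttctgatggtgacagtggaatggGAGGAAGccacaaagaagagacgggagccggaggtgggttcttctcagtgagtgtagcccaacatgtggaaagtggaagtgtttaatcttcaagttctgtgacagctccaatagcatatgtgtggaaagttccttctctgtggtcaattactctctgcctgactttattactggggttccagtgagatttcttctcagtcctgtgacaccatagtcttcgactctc

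On either strand, GAGGAAG was found at 2 places before Siglece and at 1 place each before Siglecf, Siglecg, Cd33 and Inpp5d. It was not found before Ptpn6 or Ptpn11, nor before a second listed start of Siglecg. Of the 32851 mouse promoters in the RefSeq table, cut to the same length, 10.6% held it. The other motifs searched on both strands were the interferon response element (in 2.98% of promoters), TTCNNNGAA (the STAT site, 7.02%), TGANTCA (AP-1, 6.75%), TTGCNNAA (C/EBP, 9.56%) and TATAAA (the TATA box, 12.4%), and none of these motifs stood in these windows of the 7 genes. The start used for Cd33 lies inside the gene as GENCODE draws it, which has a longer 5′ end. Those used for Siglecg and Ptpn6 also lie inside, by far fewer bases.

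The libraries held between 27116201 and 39698572 counts. The detection floor of 3 counts stood at 0.0784 to 0.110 CPM, a limit for counting error only. Principal components were taken from the 25% of genes that varied most. The first of them separated the lines and held 83.6% of the variance. On the second, with 7.05%, replicate 1 of the EKO-labelled line stood at 19.1 without OVA and 20.9 with OVA, and the other 10 libraries lay between -18.7 and 9.24. Siglece mRNA was not reduced in the libraries labelled EKO, which are therefore called EKO-labelled throughout. The study screened the clones for Siglec-E protein before pooling them, and reports that they had little or none. The counts measure mRNA only. All 8 genes of the dendritic cell list were detected in every library, among them Itgax (CD11c), which had at least 23106 counts. Of the 14079 tested genes, 47% differed between the lines in OVA-pulsed cells, 46.4% in unpulsed cells and 60.5% in the average over pulsing, at an adjusted p under 0.05.

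At the level of mRNA per kilobase of exon, the 7 genes spanned a wide range. Ptpn6 was the highest, with a mean of 319 CPM per kilobase over the 12 libraries, and 1.57% of tested genes were higher. Siglece came next with 96.4, above Ptpn11 with 36.3 and Inpp5d with 34.2. Cd33 had a mean of 17.9, Siglecf 4.51 and Siglecg 0.713. The ranges over the 12 libraries of Ptpn11 (30.5 to 42.3) and Inpp5d (31.3 to 36.7) overlapped, so their order was within the spread. In CtrV libraries Inpp5d had the higher median (36.1 against 34.7), and in EKO-labelled libraries Ptpn11 had (37.7 against 33.1). The other neighbours in this order did not overlap in any library on this scale. The order depends on the length used. Per kilobase of coding sequence, Ptpn11 had 128 to 148 CPM in CtrV libraries, above Siglece with 107 to 116 CPM. In EKO-labelled libraries they overlapped, at 150 to 177 and 118 to 168 CPM. On that scale Cd33 in CtrV libraries (135 to 163 CPM) was also above Inpp5d (67.8 to 78.0 CPM).

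Siglece was thus the most abundant Siglec mRNA of both lines on the scale of CPM per kilobase of exon. Its share of the summed level of the 4 Siglecs was 74.3% to 77.9% (median 75.5%) in the 6 CtrV libraries and 83.5% to 86.7% (median 84.9%) in the 6 EKO-labelled ones. Cd33 held 18.7% to 22.8% in CtrV libraries (median 21.5%) and 7.56% to 11.5% in EKO-labelled libraries (median 9.69%). These shares depend on the length used for Cd33, whose annotated exons add up to 7771 bases with 1209 of them coding. Per kilobase of coding sequence the order of these Siglecs differed between the lines. On that scale Cd33 had 135 to 163 CPM in CtrV libraries, and Siglece had 107 to 116 CPM. In EKO-labelled libraries Cd33 had 67.1 to 86.95 CPM and Siglece 118 to 168 CPM. Cd33 was thus above Siglece in each of the 6 CtrV libraries (a ratio of 1.17 to 1.49) and below it in each of the 6 EKO-labelled ones (0.425 to 0.671).

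**Figure D1:**
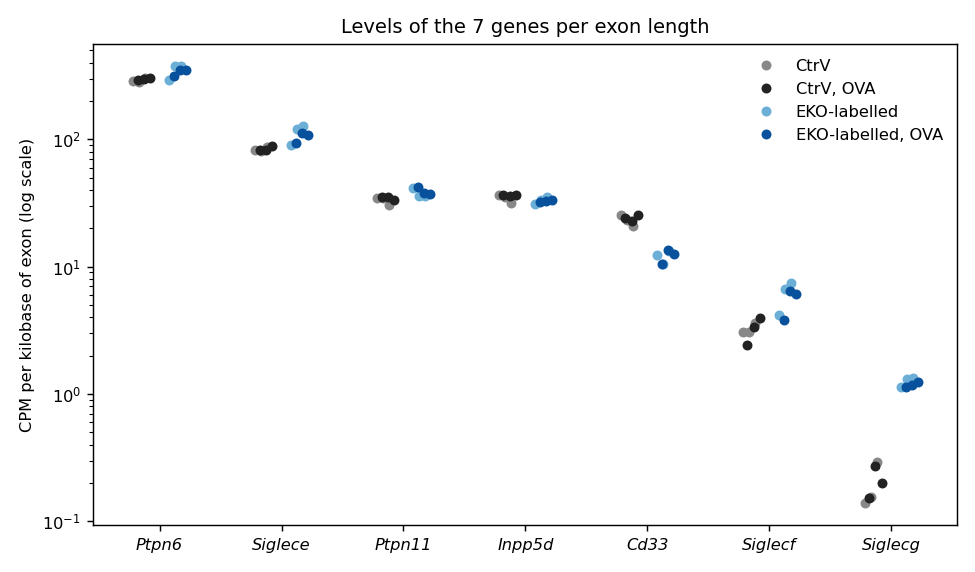
Level of each gene in CPM per kilobase of exon (log axis) in the 12 libraries, 1 point a library, with CtrV libraries in grey and black and EKO-labelled libraries in blue. Ptpn6 lies at the top with a mean of 319, and the largest gap between the lines is that of Siglecg at the bottom.

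Between the lines, Siglece, Siglecf and Siglecg were higher and Cd33 was lower in EKO-labelled cells, with and without OVA. Ptpn6 and Ptpn11 were slightly higher, and Inpp5d did not pass the test. In OVA-pulsed cells 5 of the 7 genes passed an adjusted p under 0.05 (4 higher and 1 lower), where 25.1% of tested genes were higher and 21.9% lower. In unpulsed cells 6 passed (5 higher and 1 lower; background 24.5% and 21.9%). In the average over pulsing 6 passed (5 higher and 1 lower; background 31.3% and 29.1%). With the counts of same-numbered pulsed and unpulsed libraries of a line summed, 6 also passed (background 48.6%). With so much of the transcriptome differing, it is the size and direction of each gene's difference that describe it, more than the count. In a culture of cells, fewer cells of a type and less RNA per cell cannot be told apart.

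**Figure D2:**
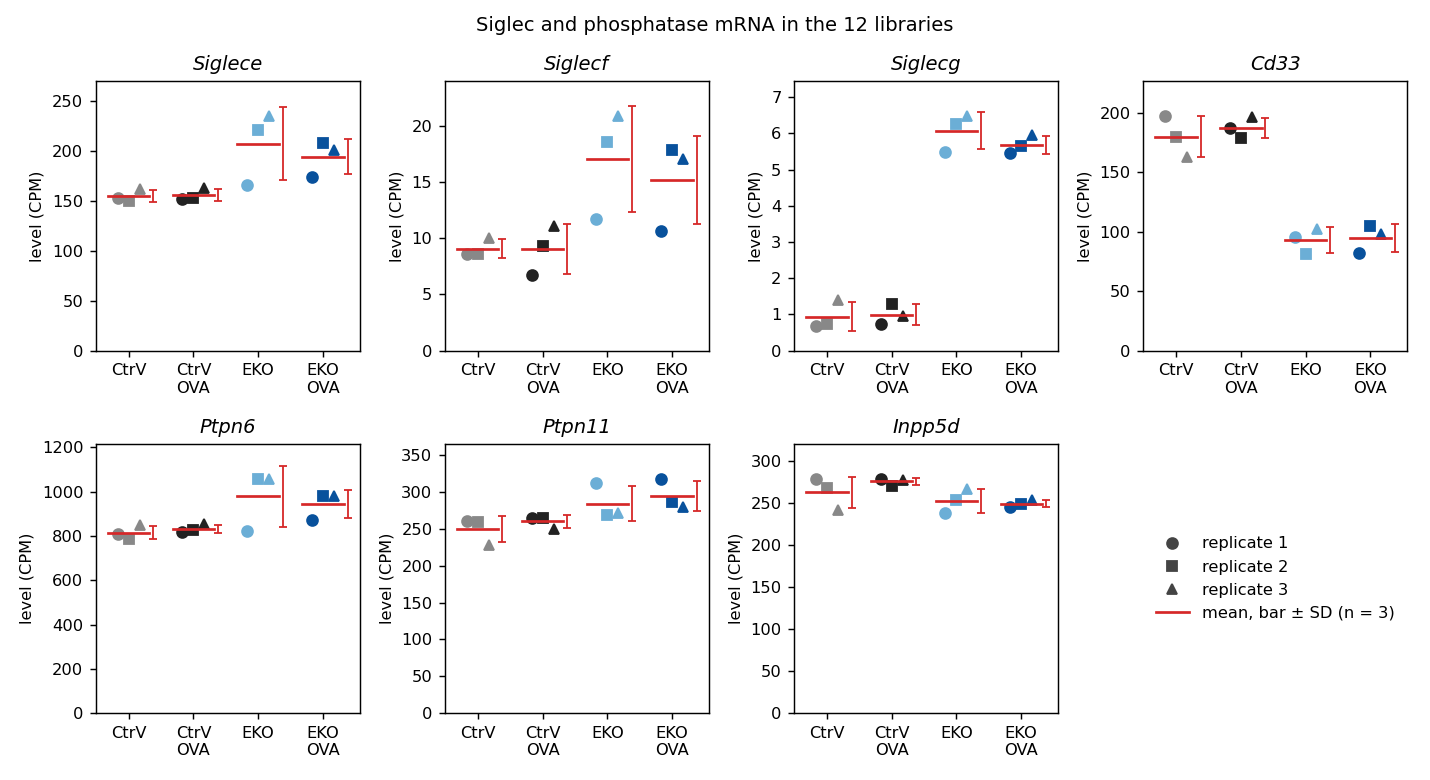
Level of each gene in CPM in every library (y axes start at 0), with the marker showing the replicate number and red lines and bars the mean and SD of 3 libraries. Siglece, Siglecg, Cd33 and Ptpn11 separate the lines completely, while replicate 1 of the EKO-labelled line lies near CtrV for Siglece, Siglecf and Ptpn6.

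Siglece encodes Siglec-E, the main inhibitory CD33-related Siglec of mouse myeloid cells and the target of the edit. In the 6 CtrV libraries it ranged from 81.1 to 88.3 CPM per kilobase of exon (median 82.9), and in the 6 EKO-labelled libraries from 89.7 to 127 (median 111). Every EKO-labelled library was above every CtrV library, and the lowest of them were those of replicate 1. The fold between the lines, averaged over pulsing, was 1.28 (95% interval 1.17 to 1.41, adjusted p = 0.000372 in edgeR's quasi-likelihood test). The counts report the amount of transcript and not whether it still encodes the receptor. In OVA-pulsed cells the call was lost without CtrV replicate 2 (log2 fold change 0.26, adjusted p = 0.0729) and without EKO replicate 2 (0.26, adjusted p = 0.0623).

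Siglecf encodes Siglec-F, a receptor best known from eosinophils and alveolar macrophages. In unpulsed cells it had 8.56, 8.62 and 10.02 CPM in CtrV replicates 1, 2 and 3 and 11.7, 18.5 and 20.8 CPM in the EKO-labelled replicates. With OVA it had 6.72, 9.29 and 11.1 CPM in the CtrV replicates and 10.7, 17.8 and 17.04 CPM in EKO-labelled cells. The groups did not overlap without OVA. With OVA they did, since EKO-labelled replicate 1 lay below CtrV replicate 3. The log2 fold change averaged over pulsing was 0.81 (SE 0.087, adjusted p = 1.47e-05 in edgeR), a fold of 1.76 (95% interval 1.54 to 2.01). It was 0.74 with OVA and 0.88 without, and was called under every setting and with each library left out. The eosinophil markers Prg2 and Epx were at 0 in all libraries and Ccr3 had at most 5 counts, against 241 to 682 counts of Siglecf. The summed level of these 3 markers was at most 0.135 CPM in CtrV libraries and 0.153 CPM in EKO-labelled libraries. Macrophage genes, by contrast, were detected. In unpulsed cells mean levels in CtrV and EKO-labelled libraries were 639 and 640.1 CPM for Adgre1 and 59.99 and 152.5 CPM for Fcgr1. These means were 29.2 and 42.01 CPM for Cd68 and 2.84 and 2.36 CPM for Mertk. The part of macrophages in the Siglecf result was not tested.

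Siglecg encodes Siglec-G, an ITIM receptor best known from B cells and also described in dendritic cells. It showed the largest difference of the 7 genes. It had 19, 21 and 41 counts in unpulsed CtrV replicates 1, 2 and 3 and 27, 43 and 29 counts in OVA-pulsed ones. In EKO-labelled libraries it had 150, 190 and 212 counts without OVA and 209, 176 and 194 counts with OVA. The highest CtrV library thus stayed far below the lowest EKO-labelled one (1.41 against 5.46 CPM). The log2 fold change was 2.60 averaged over pulsing (SE 0.14, adjusted p = 6.1e-08 in edgeR), a fold of 6.08 (95% interval 4.93 to 7.49). Only 1.58% of tested genes differed by more in either direction. The fold was 5.74 with OVA and 6.43 without. In EKO-labelled cells the transcript nevertheless remained rare, with a median of 1.21 CPM per kilobase of exon against 111 for Siglece.

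B cell markers were scarce in both lines. The summed level of Cd79a, Ms4a1 and Pax5 was 0 to 0.176 CPM in unpulsed and 0.0270 to 0.151 CPM in OVA-pulsed CtrV libraries, and 0.132 to 0.330 and 0.276 to 0.444 CPM in the EKO-labelled ones. The lines overlapped in this sum without OVA and did not with OVA. None of the 3 passed the expression filter. Ms4a1, which encodes CD20, had mean levels of 0.0117 and 0.0401 CPM in unpulsed and OVA-pulsed CtrV libraries and 0.215 and 0.275 CPM in the EKO-labelled ones. It had at most 16 counts, Pax5 3 and Cd79a 2, so that Cd79a, a defining marker, was under the floor of 3 counts in each library. The part of these cells in the Siglecg result was not tested. Of the 31-base words of Siglecg's transcripts 7.01% also occur in other genes, mainly in the pseudogene Gm29791, which had at most 6 counts.

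Cd33 gave its name to this family of Siglecs. The mouse protein has been described as pairing with the adaptor DAP12 (Tyrobp), which carries an activating motif. In unpulsed cells Cd33 had 197, 179.8 and 163 CPM in CtrV replicates 1, 2 and 3 and 96.02, 81.1 and 103 CPM in EKO-labelled ones. With OVA it had 187, 179 and 196 CPM in the CtrV replicates and 82.04, 105 and 97.8 CPM in EKO-labelled cells. Every EKO-labelled library was below every CtrV library, and replicate 1 did not stand apart from replicates 2 and 3. The log2 fold change was -0.97 averaged over pulsing (SE 0.079, adjusted p = 1.91e-06 in edgeR), a level 0.512 times that of CtrV (95% interval 0.454 to 0.578). It was -0.98 with OVA and -0.95 without. Among tested genes 9.31% differed by more.

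Cd33 and Siglece thus moved in opposite directions. The ratio of Cd33 to Siglece counts was 1.01 to 1.29 in CtrV libraries (median 1.20) and 0.367 to 0.579 in EKO-labelled libraries (median 0.478). The mean log2 ratio differed by -1.33 (EKO-labelled minus CtrV), by -1.30 with OVA and by -1.36 without. Since every EKO-labelled library was above every CtrV library for Siglece and below it for Cd33, the ratio had to separate the lines, and no test of it is given.

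Ptpn6 encodes SHP-1, the phosphatase of blood cells that most ITIM receptors recruit. In unpulsed cells it had 809, 789 and 849 CPM in CtrV replicates 1, 2 and 3 and 822, 1056 and 1058 CPM in EKO-labelled ones. With OVA it had 819, 828 and 854 CPM in the CtrV replicates and 874, 979 and 981 CPM in the EKO-labelled ones. In both states EKO-labelled replicate 1 was the lowest of its group, and without OVA it lay inside the CtrV range. The fold was 1.16 averaged over pulsing (95% interval 1.07 to 1.26, adjusted p = 0.00372 in edgeR). In unpulsed cells the log2 fold change was 0.26 (SE 0.072, adjusted p = 0.0139), and in OVA-pulsed cells 0.18 (SE 0.072, adjusted p = 0.0651), which missed the threshold. The OVA-pulsed value passed without CtrV OVA replicate 1 (0.23, adjusted p = 0.0478), without unpulsed EKO replicate 1 (0.18, adjusted p = 0.0149), without both libraries of EKO replicate 1 (0.23, adjusted p = 0.0052) and in a fit of the 6 pulsed libraries (0.18, adjusted p = 0.0377). The unpulsed value missed it without CtrV replicate 2 (adjusted p = 0.0832), EKO replicate 2 (0.0728) or EKO replicate 3 (0.0674), and in a fit of the 6 unpulsed libraries (0.0818). Of the exon bases of Ptpn6, 6.96% overlap Gm20531 on the opposite strand, and the reads of the 2 genes cannot be told apart there if the counting did not use strand.

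Ptpn11 encodes SHP-2, the related phosphatase that nearly all cells make. It ranged from 228 to 265 CPM in the 6 CtrV libraries (median 259.9) and from 269 to 317 CPM in the 6 EKO-labelled ones (median 282). The lines did not overlap. Here EKO-labelled replicate 1 was the highest of its line, at 311 CPM without OVA and 317 with OVA, which is the other way round from Ptpn6. The fold was 1.13 averaged over pulsing (95% interval 1.07 to 1.20, adjusted p = 0.00205 in edgeR). It was 1.13 with OVA (adjusted p = 0.0213) and 1.14 without (adjusted p = 0.0175). Without the replicate block the call was lost in each state, with adjusted p = 0.0895 with OVA and 0.0793 without. With upper-quartile normalization it was lost in each state too (adjusted p = 0.0547 with OVA and 0.0612 without, in edgeR). The call with OVA was also lost with no expression filter (0.0572), and that without OVA in a fit of the 6 unpulsed libraries (0.114).

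The Ptpn11 calls within a pulsing state also turned on single libraries. With OVA the adjusted p was above 0.05 without CtrV OVA replicate 1 (0.0931) or 2 (0.0518) and without EKO OVA replicate 1 (0.0859) or 3 (0.0688). Without OVA it was above 0.05 without CtrV replicate 1 (0.0616) or 3 (0.0616) and without EKO replicate 1 (0.0705) or 3 (0.0665). Without both libraries of EKO-labelled replicate 1 the adjusted p was 0.0776 with OVA and 0.0843 without. The average over pulsing passed under every setting tried.

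Inpp5d encodes SHIP-1, the lipid phosphatase of blood cells. It ranged from 242 to 279 CPM in CtrV libraries (median 274) and from 238 to 266 CPM in EKO-labelled ones (median 251). The lines overlapped. Averaged over pulsing its log2 fold change was -0.10 (95% interval -0.20 to -0.0021, adjusted p = 0.0722 in edgeR), and it was -0.15 with OVA (adjusted p = 0.0806) and -0.06 without (adjusted p = 0.497). The average passed the threshold with upper-quartile normalization (-0.14, adjusted p = 0.0125) and without unpulsed CtrV replicate 3 (-0.14, adjusted p = 0.00785) or unpulsed EKO replicate 3 (-0.13, adjusted p = 0.0426). In OVA-pulsed cells it passed with upper-quartile normalization (adjusted p = 0.0274), in the fit of the 6 pulsed libraries (0.0435) and without unpulsed CtrV replicate 3 (0.0263).

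**Figure D3:**
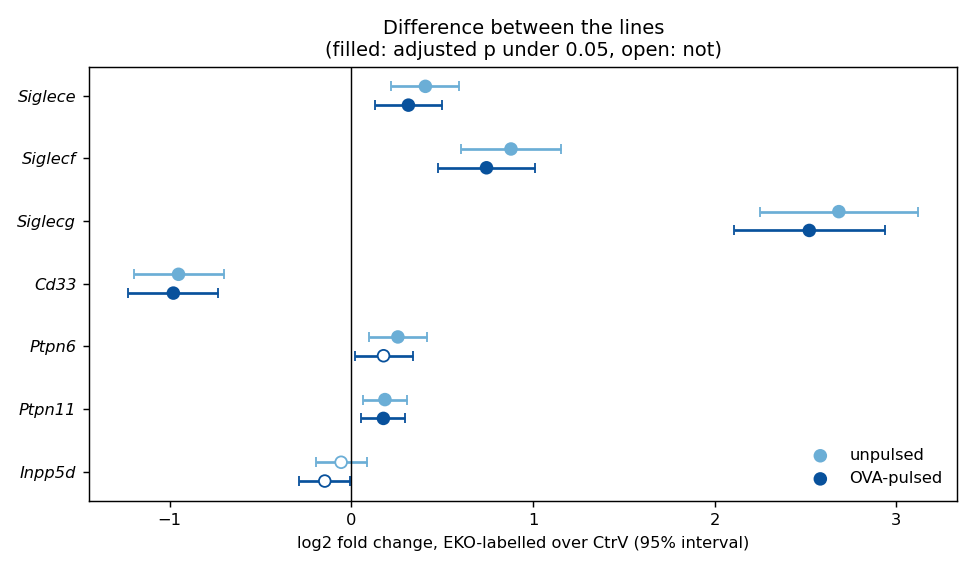
Log2 fold change of EKO-labelled over CtrV cells for each gene in unpulsed and OVA-pulsed cells, with 95% intervals from edgeR; filled points had an adjusted p under 0.05. Siglecg lies farthest to the right (2.68 and 2.52), Cd33 alone lies below 0 with filled points, and the intervals of the 2 states overlap for every gene.

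The libraries of the lines did not overlap for 6 of the 7 genes with OVA (background 52.9% of tested genes) and for 5 without OVA (background 47.1%). Over all 6 libraries a line they did not overlap for 4, namely Siglece, Siglecg, Cd33 and Ptpn11, against 35.6% of tested genes. The genes that overlapped in that comparison were Siglecf, Ptpn6 and Inpp5d. For Siglecf and for Ptpn6 it was 1 library of EKO-labelled replicate 1 that lay inside the CtrV range.

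The balance of the 2 SH2-domain phosphatases was set out as a ratio of counts. Ptpn6 to Ptpn11 was 3.04 to 3.72 in CtrV libraries (median 3.11) and 2.64 to 3.93 in EKO-labelled libraries (median 3.47), so the lines overlapped. The log2 ratio differed by 0.04 (exact two-sided permutation test of 6 against 6 libraries, p = 0.740). The lowest EKO-labelled ratios were those of replicate 1. Without its 2 libraries the difference was 0.19 (exact permutation test, p = 0.0381). These tests count the pulsed and unpulsed libraries of a replicate number as separate samples, although in the EKO-labelled line their deviations from the group means correlated over genes (0.706, 0.351 and 0.411 for replicates 1, 2 and 3). With the mean of each same-numbered pair as 1 sample, p was 0.8 in the exact permutation test, and 3 against 3 cannot give a p below 0.1.

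Replicate 1 of the EKO-labelled line lay outside the range of replicates 2 and 3 for 6 of the 7 genes, Cd33 being the exception, and for 43.6% of all tested genes. For Siglece it had 166 and 174 CPM against 202 to 235 CPM in the other replicates. For Siglecf it had 11.7 and 10.7 CPM against 17.04 to 20.8 CPM. Of the 6, Ptpn11 alone was higher in it, at 311 and 317 CPM against 269 to 286 CPM. Without these 2 libraries, 5 of the 7 genes passed with OVA (background 42.7% of the 13997 genes then tested) and 5 without (background 44.3%), and 6 passed in the average over pulsing (background 55.2%).

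OVA pulsing itself moved none of the 7 genes past the threshold in either line. In edgeR 0 of the 7 and 0 of all 14079 tested genes (0%) had an adjusted p under 0.05 for pulsed against unpulsed cells, with 231 genes at an unadjusted p under 0.05 in CtrV and 394 in EKO-labelled cells. DESeq2, voom and the other settings likewise called 0 genes. Pulsed and unpulsed libraries overlapped for each of the 7 genes in either line (4.37% of tested genes did not overlap in CtrV and 4.9% in EKO-labelled cells). The 95% intervals limit what could have been missed. For Siglece the log2 change with OVA lay between -0.18 and 0.20 in CtrV and between -0.27 and 0.10 in EKO-labelled cells, and for Cd33 between -0.19 and 0.30 and between -0.22 and 0.27. They were widest for Siglecg in CtrV cells (-0.49 to 0.64), where its counts were lowest.

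The difference between the lines did not depend on pulsing at this threshold for any of the 7 genes, and for 0 of all tested genes (0%; 269 genes at an unadjusted p under 0.05 in edgeR). For Siglecg the difference of the 2 log2 fold changes, with OVA minus without, was -0.16 (95% interval -0.82 to 0.49). For Siglece it was -0.09 (-0.36 to 0.17), for Cd33 -0.03 (-0.38 to 0.32) and for Ptpn6 -0.08 (-0.30 to 0.15).

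Across the 12 libraries some of the genes rose and fell together. Siglece and Ptpn6 had a Pearson correlation of log2 CPM of 0.985, and Siglece and Siglecf 0.962. Cd33 and Siglecg had -0.965. These are descriptions over libraries that share the lines, the replicates and the normalization, and 370 of the 12391 genes ranked had a correlation above 0.9 with Siglece, 1182 with Siglecg and 5 with Inpp5d. The genes most like Siglece were Taf15 (0.986), Lgals8 (0.986), Dhrs7 (0.986), Milr1 (0.985), itself an ITIM receptor, and Ptpn6.

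For the other genes the 3 most alike were named by the same measure. Siglecf was most like Gm16589 (0.988), Riok1 (0.983) and Fam72a (0.977). Siglecg was most like Gm10704 (0.992), Fbxw2 (0.991) and H2-DMb1 (0.991), which encodes a chain of a peptide-loading factor for MHC class II. Cd33 was most like Znrf2 (0.990), Ptpn7 (0.989), a tyrosine phosphatase of blood cells, and Slc45a4 (0.988). Ptpn6 was most like Siglece, Lgals8 (0.982) and Milr1 (0.979). Ptpn11 was most like Arid3a (0.982), Rnf19a (0.970) and Camta2 (0.968), and Inpp5d like Pcnt (0.908), Ckap5 (0.907) and Uhrf1bp1l (0.904).

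The remaining Siglecs were nearly absent. Siglec1 (CD169) had at most 19 counts, Siglech, a marker of plasmacytoid dendritic cells, at most 11, Cd22 at most 1, and Siglec15 had 0 in every library, so none of them was tested. Mag, the Siglec of myelin, had 21 to 50 counts and was higher in EKO-labelled cells (a mean of 0.84 CPM in unpulsed CtrV and 1.29 CPM in unpulsed EKO-labelled cells, log2 fold change averaged over pulsing 0.59, SE 0.17, adjusted p = 0.012 in edgeR). Of the adaptors that pair with activating Siglecs, Tyrobp (DAP12) was abundant, with 310.3 CPM in unpulsed CtrV cells and 289 in EKO-labelled ones, and was slightly lower (-0.10, adjusted p = 0.0461). Hcst (DAP10) was slightly higher, with 4.26 and 5.39 CPM (0.25, adjusted p = 0.0132). Mag and Tyrobp passed in neither pulsing state on its own (adjusted p = 0.0723 with OVA and 0.064 without for Mag, 0.145 and 0.183 for Tyrobp). Of these 3 genes 2 passed with DESeq2, without the replicate block or with at least 10 counts in every library, and 1 passed when the counts of same-numbered libraries of a line were summed. The background for the 3 is 60.5%.

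In a list of kinases and SH2-domain adaptors, which also holds brakes on cytokine receptors such as Socs3 and Cish, more genes rose than fell. This list and those that follow were chosen with earlier results of these data known. Of 26 listed genes 23 were tested and 18 passed in the average over pulsing, 13 higher and 5 lower (background 31.3% and 29.1%), with a median log2 fold change of 0.21 over the tested list and -0.00 over all tested genes. The largest rises were those of Socs3 (1.61), a brake on cytokine receptors, Syk (1.17), the kinase of activating receptors, Cish (0.90), a further cytokine brake, and Cblb (0.88), a ubiquitin ligase that restrains receptor signals. In unpulsed cells Socs3 rose from 24.6 ± 3.24 to 75.8 ± 14.5 CPM and Syk from 205 ± 7.59 to 471 ± 27.4 CPM (mean ± SD, n = 3). The falls were led by Dok2 (-1.49), an inhibitory adaptor, and Fgr (-1.39), a Src-family kinase, which went from 237 ± 6.57 to 95.04 ± 4.62 CPM in unpulsed cells. Dok3 (-0.25) and Plcg2 (-0.22), a phospholipase, fell by less. The fall of Fgr was not shared by the other tested Src-family kinases of the list, named after their values were seen. Lyn (0.36) and Src (0.50, with 26 to 71 counts) rose, and Fyn (0.03) and Lck (-0.07) did not pass.

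Other phosphatases changed in both directions, about as often as all genes did. Of 23 listed genes 22 were tested and 14 passed (background 60.5%), 8 higher and 6 lower (background 31.3% and 29.1%), with a median log2 fold change of 0.03. The inositol phosphatases Inpp5b (1.05), Synj1 (0.84) and Inppl1 (0.62), which encodes SHIP-2, and the receptor phosphatase Ptprj (CD148, 0.45) rose. Ptpn7 (-0.85), Ptpn18 (-0.66), Ptpn1 (-0.48), which encodes PTP1B, and Inpp5k (-0.28) fell. Inppl1, the relative of Inpp5d, went from 21.6 to 31.3 CPM in unpulsed cells and from 22.1 to 36.3 CPM with OVA.

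Other receptors with ITIMs mostly rose. Of 20 listed genes 15 were tested and 14 passed (background 60.5%), 11 higher and 3 lower (background 31.3% and 29.1%), with a median log2 fold change of 0.56 over the tested list. Clec4a2 (DCIR), a C-type lectin of dendritic cells, had the largest rise, from 10.1 ± 0.470 to 60.02 ± 10.6 CPM in unpulsed cells and from 10.4 ± 0.715 to 51.6 ± 1.56 CPM with OVA (2.44, SE 0.065, adjusted p = 6.88e-10 in edgeR). Cd72 (1.78), Lilrb4a (1.18) and Klrb1b (1.03) rose as well, and Cd72 went from 225 ± 28.0 to 804 ± 199.8 CPM in unpulsed cells. Cd300lf (-0.60), Clec12a (-0.47) and Pilra (-0.13) fell. Sirpa (the SIRPα receptor for CD47), the only tested gene of the list that did not pass and named after its values were seen, had 451 CPM in unpulsed CtrV and 456 in EKO-labelled cells (0.01, adjusted p = 0.853). The rises and falls of Siglecs between the lines therefore stood among changes of both signs in each of these lists.

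**Figure D4:**
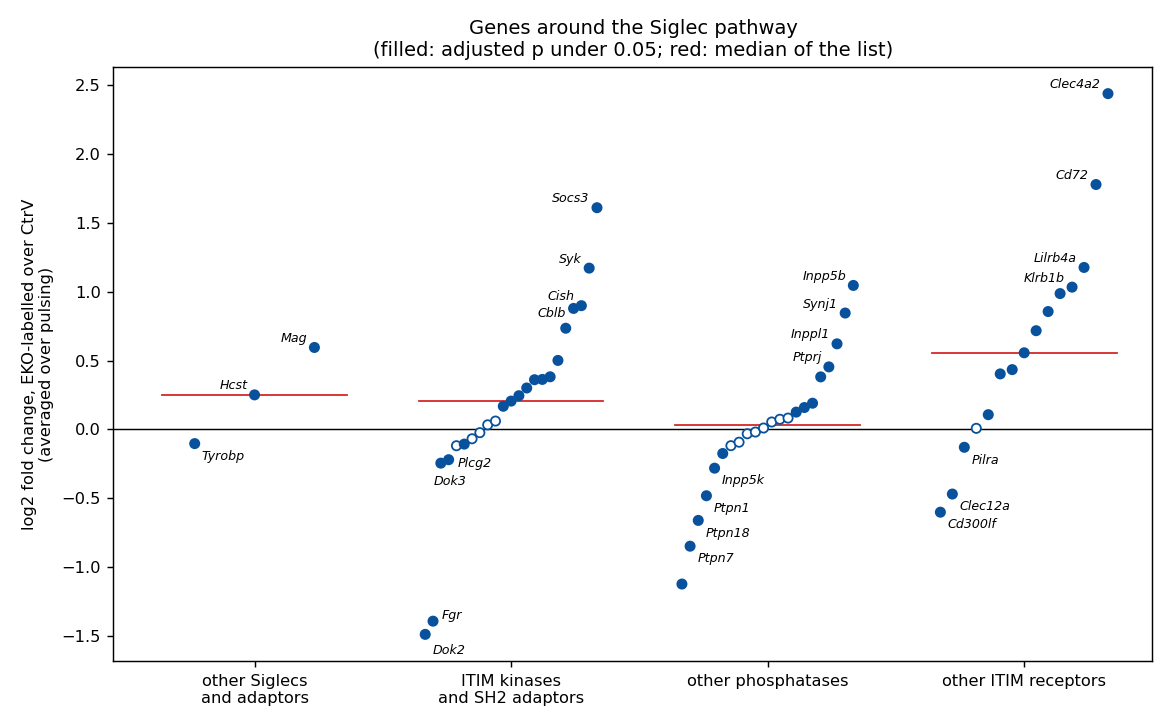
Log2 fold change of EKO-labelled over CtrV cells, averaged over pulsing, for each tested gene of 4 lists, in rising order within a list; filled points had an adjusted p under 0.05 and red lines mark the medians. The list of other ITIM receptors has the highest median (0.56), with Clec4a2 at 2.44, and the kinases and adaptors run from Dok2 at -1.49 to Socs3 at 1.61.

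Along chromosome 7 the Siglec genes did not move as a block with their neighbours. From 100000 bases before Siglecf to 100000 bases after Siglece the annotation holds 32 genes, of which 14 were tested, 10 of them not Siglecs. Of these 10, 4 passed in the average over pulsing, against 60.5% of all tested genes. The 10 are not all separate neighbours. Gm45233 and Mir7051, which did not pass, overlap Etfb on the same strand, and Etfb did not pass either. Zfp715 (0.39), Zfp719 (0.23) and Ctu1 (0.16) were higher, and Zfp658 was lower (-1.34, adjusted p = 1.79e-07 in edgeR). Zfp658 is the tested gene next to Cd33 on the side of Siglece, and both fell. The tested gene next to Siglecg on the side of Siglece is Etfb, whose log2 fold change was 0.02 (adjusted p = 0.691).

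**Figure D5:**
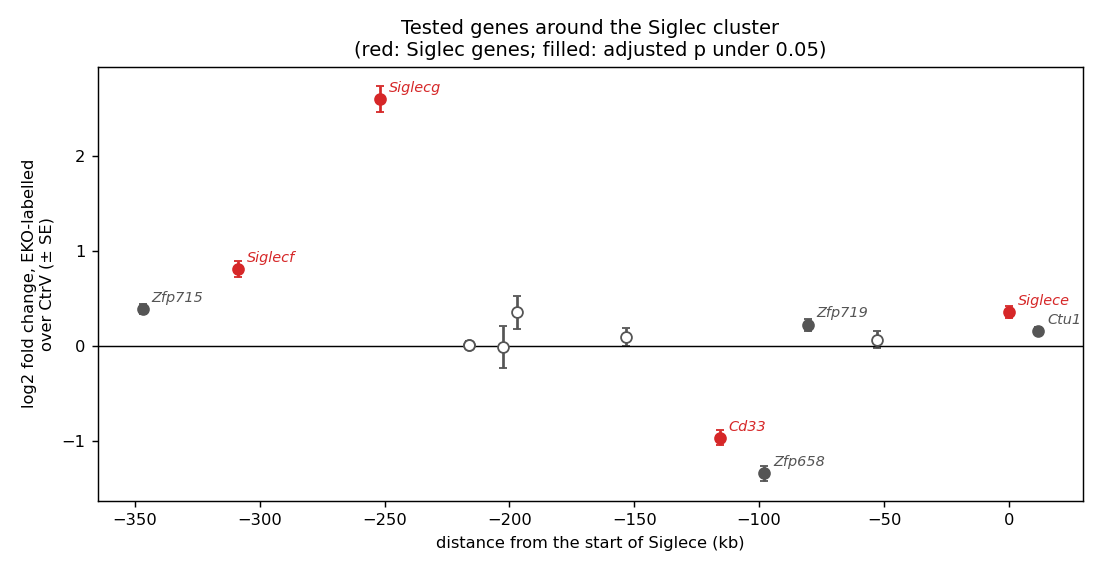
Log2 fold change of EKO-labelled over CtrV cells (averaged over pulsing, bars ± SE) for the 14 tested genes around the Siglec cluster, against the distance of their start from that of Siglece in kilobases; Siglec genes are red, and filled points had an adjusted p under 0.05. Siglecg (2.60) and Zfp658 (-1.34) are the extremes, and the 6 open points lie between -0.01 and 0.36.

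The markers of T and NK cells, neutrophils and mast cells were low in these cultures. Of the T and NK cell list Cd3e and Ncr1 were at 0, of the neutrophil list Ly6g, S100a8, S100a9 and Elane, and of the mast cell list Cpa3, Fcer1a and Tpsab1. The summed levels of these lists were at most 0.513, 0.0989 and 0.0366 CPM in any library. Of the plasmacytoid list Tcf4 was at 0 and Ccr9 had at most 8 counts, and Bst2 carried the sum, which was 66.9 to 125 CPM in CtrV libraries and 153 to 277 CPM in EKO-labelled ones. The 4 macrophage genes summed to 691 to 804 CPM in CtrV libraries and to 791 to 888 CPM in EKO-labelled libraries, and the 8 dendritic cell genes to 22316 to 24145 and 21510.0 to 23774 CPM. Adgre1 carried most of the macrophage sum. Cd74 carried most of the dendritic sum, with mean levels of 17242 and 15586 CPM in unpulsed CtrV and EKO-labelled libraries. The other dendritic genes differed in both directions, such as H2-Ab1 (2966 and 4289 CPM) and Ciita (828 and 635 CPM) in the same libraries. The part of these cell types in the Siglec results was not tested.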

How the data were processed

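One table deposited by the authors held unnormalized read counts per gene for 12 RNA-seq libraries. Per the submitters' notes and the methods, reads were aligned to mm10 with STAR and counted on exons with featureCounts; whether strand was used is not given in the sources used here. Groups and replicate numbers came from the labels. The counts were normalized by TMM and fitted over all 12 libraries with edgeR 4.0.16 (quasi-likelihood test, R 4.3.3), with terms for group and replicate number. P-values were adjusted by Benjamini and Hochberg's method over the 14079 tested genes (log2 CPM above 0 in at least 2 libraries). Genes passed at an adjusted p under 0.05. Intervals cover 95%. Symbols, positions and exon lengths came from GENCODE, which may differ from the annotation the authors counted with. The Ptpn6 to Ptpn11 ratio was compared by exact two-sided permutation tests (SciPy 1.17.1).

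The genes, lists and named-gene rule were chosen with earlier results of these data known. The rule named the 7 genes, the other Siglecs and adaptors, up to 4 genes per direction of each other list (passed in the average over pulsing, largest change, mean log2 CPM 1 or more) and the genes most alike by correlation. Alternatives were RLE and upper-quartile normalization, no filter, at least 10 counts in every library, no replicate block, DESeq2 1.42.0, voom (limma 3.58.1), bias-adjusted deviances, the 6 compared libraries alone, and leaving out libraries. Deviations from the group means of same-numbered libraries of the lines correlated at 0.448, 0.292 and 0.289 with OVA and at 0.0602, -0.0118 and 0.263 without. Pulsed and unpulsed libraries of a number correlated at 0.706, 0.351 and 0.411 in the EKO-labelled line and at 0.0775, 0.179 and 0.373 in CtrV, so tests over both states may count related samples as separate. Fits with their counts summed were added after seeing the data. The fit was tested on simulated counts. Library totals of 27116201 to 39698572 set the depth. A few list genes are not reported here and were left out of their lists.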

Additional observations from a re-analysis of the deposited data

How the results depend on the processing

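For Siglecf, Siglecg and Cd33 the difference between the lines kept its direction and passed the threshold under every setting and with each library left out, with and without OVA. Siglece did so too except in OVA-pulsed cells without CtrV replicate 2 or EKO replicate 2. In the average over pulsing 6 to 7 of the 7 genes passed under the settings other than leaving out libraries. Of all genes tested, 6848 to 8946 passed under these settings. With the counts of same-numbered libraries of a line summed, 3 sums against 3, the same 6 genes passed (48.6% of tested genes did), with adjusted p = 0.0496 for Ptpn6 and 0.0458 for Ptpn11. The calls of Ptpn6, Ptpn11 and Inpp5d within a pulsing state were the unstable ones. With libraries left out, the number of the 7 genes that passed was 3 to 6 with OVA, the lowest without CtrV OVA replicate 2, and 4 to 6 without OVA. Of all genes tested, 5171 to 6993 then passed with OVA and 5364 to 6476 without. Without the replicate block it was 4 with OVA and 5 without, and only the Ptpn11 calls were lost (adjusted p = 0.0895 and 0.0793). Deviations of same-numbered libraries of the lines correlated at 0.289 to 0.448 with OVA and at -0.0118 to 0.263 without. Whether the numbers pair the libraries of the lines was not tested.

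Values near 0 that did not pass changed sign. With upper-quartile normalization the change of Siglece with OVA in CtrV was -0.014 and the dependence of the Ptpn11 difference on pulsing 0.0037. Without both libraries of EKO replicate 1 the unpulsed difference of Inpp5d was 0.014, and the dependence on pulsing was 0.087 for Cd33 and 0.0041 for Ptpn11. With libraries left out in turn, the unpulsed Inpp5d difference ran from -0.13 to 0.0034. The change with OVA in CtrV ran from -0.053 to 0.086 for Siglece, -0.14 to 0.16 for Siglecf, -0.17 to 0.45 for Siglecg, -0.051 to 0.15 for Cd33, -0.018 to 0.090 for Ptpn6 and -0.0041 to 0.13 for Inpp5d. In EKO-labelled cells it ran from -0.097 to 0.15 for Cd33, -0.14 to 0.014 for Ptpn6 and -0.074 to 0.032 for Inpp5d. The dependence on pulsing ran from -0.54 to 0.077 for Siglecg, -0.15 to 0.095 for Cd33 and -0.057 to 0.026 for Ptpn11. Leaving out libraries for the ratios was added after seeing the data. The Ptpn6 to Ptpn11 ratio then differed by -0.013 to 0.10, and by 0.19 without both libraries of EKO replicate 1 (exact permutation p = 0.0381). The Cd33 to Siglece ratio differed by -1.41 to -1.26, and by -1.33 over means of same-numbered libraries. It had to separate the lines there too, so no test of it is given. For all of these the cause was not tested. Depth limited Siglecg in CtrV most, where 19 to 43 counts gave the widest intervals.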
